A study of Mus musculus with 8 samples.

Results

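Paneth cells (PCs), the granule-filled secretory cells at the base of the small intestinal crypts, store enzymes and enzyme cofactors together with their antimicrobial peptides. The 7 genes described here are genes of such proteins, Pla2g2a in a form that the reference annotation marks as loss of function. They were chosen by name from 55414 genes in the count table. They are the metalloproteinase Mmp7, the phospholipases Pla2g2a and Pla2g2f, the lipase cofactor Clps, the lipase Pnliprp2, and the serine proteases Habp2 and Klk1. The rule itself used names and known roles and no level or fold change. Bulk RNA-seq of FACS-sorted PCs from the small intestine was available for 8 mice, 1 library per mouse; the study's methods name C57BL/6J as the strain, and the labels give no age. For 7 days 4 of the mice drank Milli-Q water (hereafter water) and the other 4 drank water with 25 mM ZnSO4 (hereafter zinc). All 8 mice then received TNF, an inflammatory cytokine, by injection, and cells were taken 3 hours later, so there was no group without TNF. The comparison asked how zinc in the drinking water altered the PC transcriptome under TNF, and here how the transcripts of these enzymes differed between the groups.

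Mouse alpha-defensins are made as inactive precursors, and MMP7 (matrilysin), an enzyme that holds a catalytic zinc ion, cuts off the pro-segment. MMP7 is itself made as a precursor, in which a cysteine of the pro-domain occupies the zinc until it is displaced, the so-called cysteine switch. Secreted phospholipases A2 hydrolyse phospholipids and need calcium; the group IIA enzyme acts on bacterial membranes, and Pla2g2a is disrupted in the C57BL/6 lineage. Colipase, the product of Clps, anchors pancreatic triglyceride lipase to bile-salt-covered fat droplets, and PNLIPRP2 is a lipase of the same family that also cleaves phospholipids and galactolipids. HABP2 is a hyaluronan-binding serine protease known mainly from plasma, and KLK1, tissue kallikrein, releases kinins from kininogen.

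The libraries held 10623658 to 15101627 counts. Levels are given as CPM, counts relative to a library size that was scaled by TMM, a method that equalises libraries on the bulk of their genes. All 7 genes were deeply covered, with at least 1884 counts in every library, and all 7 were among the 10707 genes that passed the expression filter. Together they took 1.21% to 1.42% of the counts of a library, beside 34.0% to 44.8% for the 28 protein-coding Defa genes. The labelled cell type had its defining transcripts, led by Defa24 and Lyz1 with means of 179330.0 and 157340.0 CPM over the 8 libraries. Zinc replicate 3 stood apart although it was labelled as TNF-treated. The 14 TNF response genes examined summed to 135 CPM there against 1402 to 1696 CPM in the other 7 libraries, and 13 of the 14 had their lowest level in it. Icam1, an adhesion molecule gene, had 0 counts in that library, which allows up to 0.211 CPM, against 87.1 to 149 CPM elsewhere. Values that rest on zinc replicate 3 are therefore also given without it. In bulk samples fewer cells of a type and less RNA per cell cannot be told apart.

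The coding sequences show what these transcripts encode; the stretches below are reference sequence from the GENCODE M39 transcripts of the GRCm39 mouse genome, written 5′ to 3′. In Mmp7 the cysteine switch lay at residues 85 to 91 of 264, with the cysteine codon in capitals, and the zinc-binding histidines at residues 214 to 224, with the 3 histidine codons in capitals.
Mmp7 cysteine switch: cctaggTGTggagtgccagat
Mmp7 zinc-binding histidines: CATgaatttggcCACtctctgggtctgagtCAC

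Among the phospholipases, the catalytic histidine site was found at residues 105 to 112 of 210 in Pla2g2f, with the histidine codon in capitals. In Pla2g2a the same site was not found in the annotated reading frame. It was found in the frame shifted by 1 base, at coding bases 191 to 214. GENCODE gives the canonical Pla2g2a transcript the type protein_coding_LoF (loss of function), and its annotated coding part had 442 bases, which is no multiple of 3, and 4 in-frame stop codons. The first of them, TGA in capitals in the last line, was codon 69. That stop codon is read from bases of the shifted-frame histidine site, as the overlap of the lines shows. Counts of Pla2g2a thus measure a transcript that the reference annotation marks as loss of function.
Pla2g2f histidine site: tgctgccatgccCACgactgttgc
Pla2g2a histidine site, frame shifted by 1: tgctgtgttactCATgactgttgc
Pla2g2a up to the first in-frame stop: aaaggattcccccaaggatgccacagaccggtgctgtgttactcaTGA

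For the lipase and the serine proteases, the serine codon that marks the active site is in capitals. It lay within residues 182 to 186 of 482 in Pnliprp2, 464 to 469 of 517 in Habp2 and 211 to 216 of 261 in Klk1. Clps encodes a cofactor with 113 residues and no catalytic site, so none is shown.
Pnliprp2 lipase serine: ggccacAGCttgggc
Habp2 catalytic serine: ggtgacTCGgggggccct
Klk1 catalytic serine: ggtgacTCAggaggccca

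Levels can be compared between genes only per transcript length, so counts were also expressed as TPM, a share of all transcripts after division by the length of the canonical GENCODE transcript. On that scale the mean over the 8 libraries was highest for Mmp7, at 3423 ± 387 TPM (SD, n = 8), followed by Clps at 3177 ± 592. Mmp7 exceeded Clps in 6 of the 8 libraries, so these neighbours did not differ beyond their spread. Pnliprp2 followed at 1503 ± 345 TPM and lay below Clps in all 8 libraries. Pla2g2a had 1128 ± 271 TPM and was exceeded by Pnliprp2 in 6 of 8 libraries, with overlapping ranges. Pla2g2f had 237 ± 60.4 TPM, below Pla2g2a in 8 of 8 libraries. The lowest levels were those of Klk1, 166 ± 48.1 TPM, and Habp2, 162 ± 40.2 TPM, and Klk1 was the higher in 4 of 8 libraries, so their order was not resolved. By mean TPM over all genes the 7 ranked from 15 (Mmp7) and 16 (Clps) through 23 (Pnliprp2), 25 (Pla2g2a) and 68 (Pla2g2f) to 95 (Klk1) and 98 (Habp2).

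**Figure D1:**
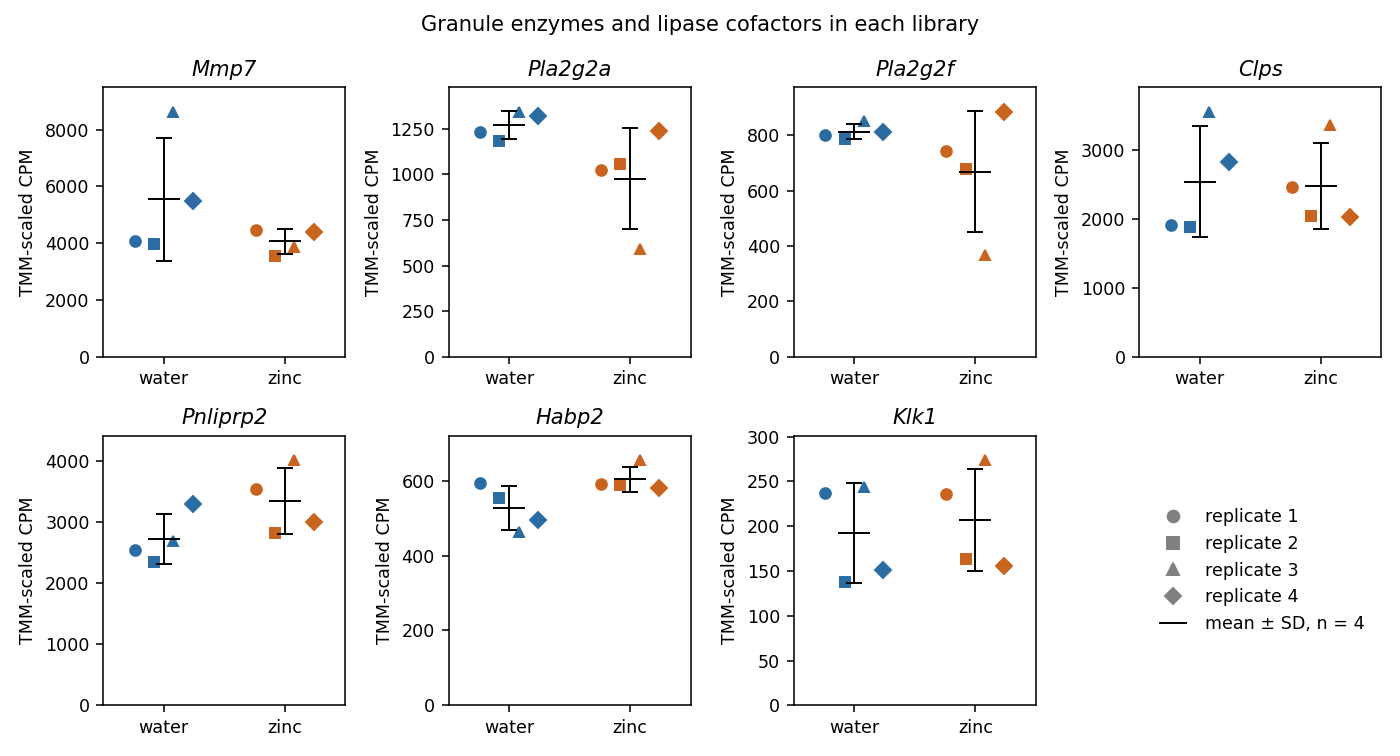
TMM-scaled CPM (linear axes from 0) of each of the 7 genes in the 4 water libraries (blue) and 4 zinc libraries (orange), with the replicate given by the marker and the mean ± SD in black. The groups overlap for every gene; Mmp7 is highest in water replicate 3 at 8627 CPM, and Pla2g2a and Pla2g2f are lowest in zinc replicate 3 at 589 and 369 CPM.

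None of the 7 genes passed the test of zinc against water (0 of 7 at an adjusted p under 0.05 by edgeR's quasi-likelihood F-test), and neither did any other gene, the background being 0% of the 10707 tested. At an unadjusted p under 0.05 the count was 0 of 7, beside 10.2% of all genes tested. DESeq2 called 4 genes and limma-voom 0, none of the 7 among them in either. In TMM-scaled CPM, 0 of the 7 had groups that did not overlap, beside 5.87% of all genes tested. This depended on the scale. In TPM, which has no TMM factor, the groups of Mmp7 and Pnliprp2 did not overlap. Mmp7 had 3395 to 4298 TPM in water and 2993 to 3326 in zinc, and Pnliprp2 890 to 1419 and 1489 to 2071. The share of all genes without overlap in TPM was not computed, and TPM was not tested. The fitted log2 fold change, zinc over water, was below 0 for 4 genes and above 0 for 3, with a median of −0.04 beside 0.01 over all genes tested. No gene of the set is therefore described as higher or lower in zinc, and the values that follow show how wide the spread between mice was.

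**Figure D2:**
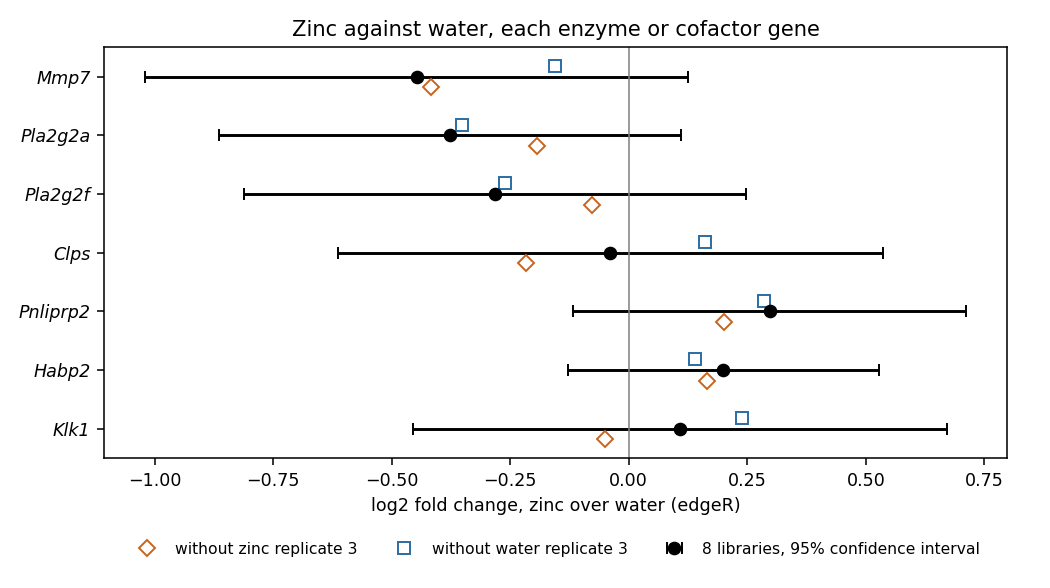
Log2 fold change, zinc over water, of each gene (x axis) from the edgeR fit to all 8 libraries, with its 95% confidence interval (black), and the same value when zinc replicate 3 (orange diamonds) or water replicate 3 (blue squares) was left out. Every interval contains 0; Clps crosses 0 without water replicate 3 (0.16) and Klk1 without zinc replicate 3 (−0.05).

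Mmp7 lies on the plus strand of chromosome 9 (GRCm39, chr9:7692091-7699587). The annotated gene AV064505 overlaps it on the opposite strand. In water its level was 4091, 3964, 8627 and 5469 CPM in replicates 1 to 4, and in zinc 4476, 3539, 3850.3 and 4382 CPM. Water replicate 3 stood far above the other 7 libraries and water replicate 4 was next, while 2 of the 4 zinc libraries lay below every water library and the other 2 within the water range. The means were 5538 ± 2169 CPM in water and 4062 ± 444 CPM in zinc (SD, n = 4 each). The fold change was 0.733 (95% confidence interval 0.493 to 1.09), or −0.45 ± 0.26 on the log2 scale (SE), with an adjusted p of 0.520 by edgeR. Without water replicate 3 the log2 value was −0.16, and without water replicates 3 and 4 it was 0.0026. On the TMM scale the lower mean in zinc thus rested on those libraries. In TPM it did not, as water replicates 1 and 2, at 3428 and 3488 TPM, lay above every zinc library (2993 to 3326). Water replicates 3 and 4 were also the libraries with the largest Defa shares, 44.8% and 41.3% of counts, against 34.0% to 39.4% elsewhere.

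Because MMP7 acts on the defensin precursors, its counts were also set against the summed counts of the protein-coding Defa genes. This ratio does not depend on the scaling of libraries. It does depend on how reads that match several Defa genes were counted, which is not given. Mmp7 had 12.5, 12.9, 14.6 and 11.8 counts per 1000 Defa counts in water replicates 1 to 4, and 11.9, 11.7, 10.6 and 11.8 in zinc. The Defa ratio of water replicate 3 was the highest of the 8, as its Mmp7 level had been, and that of zinc replicate 3 was the lowest. The groups overlapped only narrowly, with zinc replicate 1 just above water replicate 4. The means were 13.0 ± 1.17 in water and 11.5 ± 0.612 in zinc, a difference of −1.47 (two-sided exact permutation test over 70 assignments, p = 0.0571, adjusted over the 2 ratios tested 0.114; the smallest p possible is 0.0286). The difference was −0.94 without water replicate 3 (exact p = 0.114) and −1.17 without zinc replicate 3 (exact p = 0.114). Without water replicates 3 and 4 it was −1.24 (exact p = 0.133). Across the libraries Mmp7 ranged 2.44-fold in CPM, or 1.55-fold without water replicate 3. Its ratio to the Defa genes lay between 10.6 and 14.6, or 10.6 and 12.9 without that library. The CPM range carries the TMM factors and the ratio does not. In TPM, which has no TMM factor, Mmp7 ran from 2993 to 4298, or to 3488 without water replicate 3. How far Mmp7 followed the Defa genes is therefore not read from these ranges. Single Defa genes are near-identical copies, so this ratio used only summed counts. Values of single Defa genes named elsewhere carry that limit.

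Pla2g2a (plus strand, chr4:138559171-138562497) and Pla2g2f (minus strand, chr4:138477843-138484957) both lie on chromosome 4, with 74213 bases between them. Both are genes of the same group of secreted phospholipases, Pla2g2a in the disrupted form described above. Pla2g2a had 1231, 1185, 1344 and 1322 CPM in water replicates 1 to 4 and 1024, 1058, 589 and 1240.5 CPM in zinc. The water libraries lay close together, and 3 of the 4 zinc libraries were below all of them, zinc replicate 3 by far the lowest. The means were 1270.4 ± 75.01 CPM in water and 978 ± 276 CPM in zinc, a log2 fold change of −0.38 ± 0.22 (adjusted p = 0.520, edgeR). Without zinc replicate 3 the value was −0.19 (adjusted p = 0.755).

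Pla2g2f had 801, 788, 853 and 814 CPM in water replicates 1 to 4 and 744, 679, 369 and 886 CPM in zinc. Its highest and lowest libraries, zinc replicates 4 and 3, were both in the zinc group, on either side of 4 tightly spaced water values. The means were 814 ± 28.1 CPM and 669 ± 218 CPM, a log2 fold change of −0.28 ± 0.24 (adjusted p = 0.627, edgeR), and −0.08 without zinc replicate 3. Pla2g2a and Pla2g2f were 2 of the 7 genes with their lowest level in zinc replicate 3, beside 29.97% of all genes tested. Another 3 of the 7 had their highest level there, beside 29.8% of all genes tested. The part of that library's low TNF response in these values was not tested.

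The phospholipases were also set against each other. Pla2g2a had 1.54, 1.504, 1.58 and 1.62 counts per Pla2g2f count in water replicates 1 to 4, and 1.38, 1.56, 1.60 and 1.40 in zinc. The Pla2g2a to Pla2g2f ratio of zinc replicate 3 sat inside the range of the others, although both genes were at their lowest there. Over the 8 libraries this ratio ranged 1.18-fold, against 2.28-fold for the CPM of Pla2g2a and 2.40-fold for that of Pla2g2f. Those wide ranges rested on zinc replicate 3, without which both levels ranged 1.31-fold and the ratio again 1.18-fold. A root mean square (RMS) difference in log2 CPM, after centring each gene on its mean over the 8 libraries, was used as a measure of likeness between genes. On it, Pla2g2a was the gene of rank 4 in likeness to Pla2g2f among all tested, and Pla2g2f of rank 11 to Pla2g2a, with a difference of 0.0814. Without zinc replicate 3 the difference was nearly the same, 0.0821, but the ranks were 75 and 119. Their high rank among all genes thus rested largely on that library, and the size of the difference did not. For no other gene of the 7 was another member ranked closer than 892.

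**Figure D3:**
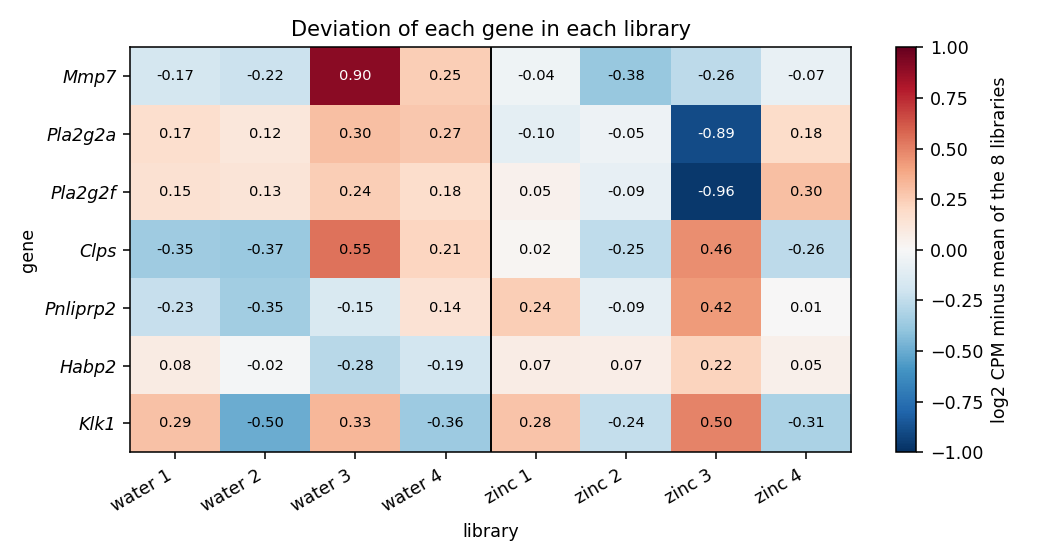
Log2 CPM of each gene in each library minus that gene's mean over the 8 libraries (colour scale −1 to 1, values printed in the cells; water libraries left of the line, zinc libraries right). Mmp7 is 0.90 above its mean in water replicate 3, and in zinc replicate 3 Pla2g2a and Pla2g2f are 0.89 and 0.96 below theirs while Clps, Pnliprp2, Habp2 and Klk1 are above.

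Clps lies on the minus strand of chromosome 17 (chr17:28777123-28787857). It had 1902, 1876, 3548 and 2818 CPM in water replicates 1 to 4 and 2459.5, 2038, 3354 and 2024 CPM in zinc. Replicate 3 was the highest library of each group, and the zinc values lay inside the water range. The means were 2536 ± 804 CPM and 2469 ± 623 CPM, a log2 fold change of −0.04 ± 0.26 (95% confidence interval −0.61 to 0.54, adjusted p = 0.960, edgeR). The sign was not settled, being 0.16 without water replicate 3, −0.22 without zinc replicate 3, and 0.16 on library totals without TMM factors. That last scaling, added after the data had been seen, moved the median of all genes by 0.13 on the log2 scale.

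Pnliprp2 lies on the plus strand of chromosome 19 (chr19:58748118-58765966). Its level was 2544, 2339, 2684 and 3296 CPM in water replicates 1 to 4 and 3533, 2809.9, 4004 and 2999 CPM in zinc. In CPM the 3 lowest libraries were in water and the 2 highest in zinc, with water replicate 4 among the zinc values. In TPM, which has no TMM factor, every zinc library (1489 to 2071) lay above every water library (890 to 1419). The means were 2716 ± 412 CPM and 3336 ± 540.0 CPM, a log2 fold change of 0.30 ± 0.19 (adjusted p = 0.537, edgeR), and 0.20 without zinc replicate 3, the highest library. The sign of the Pnliprp2 difference was the same in all 19 alternative fits, from 0.20 to 0.45.

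The cofactor was then set against the lipase within each library. Clps had 0.748, 0.802, 1.32 and 0.855 counts per Pnliprp2 count in water replicates 1 to 4, and 0.696, 0.725, 0.838 and 0.675 in zinc. Water replicate 3 was the only library with more Clps than Pnliprp2 counts, and zinc replicate 3 lay among the water values. The mean log2 ratio was −0.14 ± 0.37 in water and −0.45 ± 0.14 in zinc, a difference of −0.31 (two-sided exact permutation test, p = 0.114, adjusted 0.114). Without water replicate 3 the difference was −0.13 (exact p = 0.229), and without zinc replicate 3 it was −0.38 (exact p = 0.0571, also the smallest possible with 4 against 3).

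**Figure D4:**
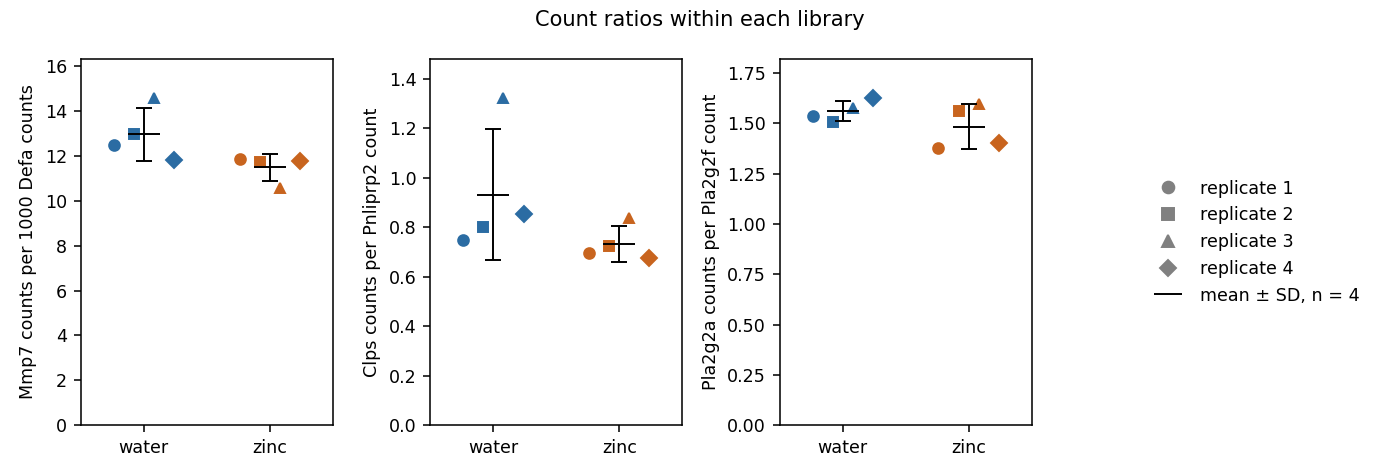
Count ratios within each library on linear axes from 0: Mmp7 per 1000 summed Defa counts, Clps per Pnliprp2 count, and Pla2g2a per Pla2g2f count, for 4 water (blue) and 4 zinc (orange) libraries with mean ± SD in black. The groups overlap in all panels; water replicate 3 is the highest in the Mmp7 and Clps panels, at 14.6 and 1.32, and the phospholipase ratio keeps within 1.38 to 1.62.

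Habp2, also on the plus strand of chromosome 19 (chr19:56275569-56309254), is overlapped on the opposite strand by Nrap. It had 593, 554, 462 and 494 CPM in water replicates 1 to 4 and 591, 589.6, 654 and 581 CPM in zinc. The zinc libraries were close together apart from replicate 3, and water replicate 1 was as high as they were. In TMM-scaled CPM, Habp2 was the steadiest of the 7, with 1.41-fold between its lowest and highest library. Its SD in log2 CPM was 0.16, beside a median of 0.33 over all genes tested. In TPM, which has no TMM factor, it ran from 87.1 in water replicate 3 to 200.5 in zinc replicate 2. The steadiness thus held on the TMM scale only. The means were 526 ± 58.9 CPM and 604 ± 33.9 CPM, a log2 fold change of 0.20 ± 0.15 (adjusted p = 0.590, edgeR), and 0.16 without zinc replicate 3.

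Klk1 lies on the plus strand of chromosome 7 (chr7:43874725-43879048). It had 237, 137, 244 and 151 CPM in water replicates 1 to 4 and 235, 164, 273 and 156 CPM in zinc. The 8 values fell into a high set (replicates 1 and 3) and a low set (replicates 2 and 4) within each group, and the groups covered nearly the same range. The means were 192 ± 56.1 CPM and 207 ± 57.0 CPM, a log2 fold change of 0.11 ± 0.25 (adjusted p = 0.871, edgeR), and −0.05 without zinc replicate 3. Of the 75-base words of the Klk1 transcript, 14.4% also occur in transcripts of the Klk1b kallikreins, so reads could be split between them. Of the 25 other kallikrein genes listed, 20 had 0 counts in all libraries and none had more than 4 counts in total, so nearly all kallikrein counts were those of Klk1.

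The gene most like each of them over the 8 libraries, by the same RMS difference, was Fkbp11, a peptidyl-prolyl isomerase gene of the secretory pathway, for Mmp7 (0.0942, with Defa40 next at 0.0950). It was Epcam for Pla2g2a (0.0604, then Cib1, 0.0632) and Med27 for Pla2g2f (0.0545, then Arpc4, 0.0718). Rps3, a ribosomal protein gene, was nearest to Clps (0.0374, then Gstm5, 0.0491), and Ndufa12 to Pnliprp2 (0.0537, then Bckdk, 0.0756). For Habp2 they were Mib1 (0.0535) and Eef2 (0.0552). With 8 libraries and 10707 genes, close matches of this kind are a description only.

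Most relatives of these enzymes had few or no counts in PCs. Of the 20 other matrix metalloproteinases listed, 4 passed the expression filter, led by Mmp15 and Mmp14, both membrane-bound enzymes, at means of 79.7 and 17.7 CPM over the 8 libraries against 4799.9 CPM for Mmp7. Their log2 fold changes were 0.42 (adjusted p = 0.485, edgeR) and 0.02 (adjusted p = 0.964). None of the 6 listed inhibitors of these enzymes passed the filter, and Timp2 and Timp1 averaged 0.293 and 0.118 CPM. Among the 11 other secreted phospholipase and receptor genes 6 passed, with Pla2g12a at 27.6 CPM and Pla2g5 at 16.9 CPM.

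Pla2g5, another calcium-dependent secreted phospholipase, was the only listed phospholipase whose groups did not overlap, beside 5.87% of all genes tested, at 20.6 ± 3.36 CPM in water and 13.2 ± 2.88 CPM in zinc. Its log2 fold change was −0.65 ± 0.19 with an unadjusted p of 0.00591 and an adjusted p of 0.485 (edgeR), so it did not pass either. Pla2g15, a lysosomal phospholipase, had the other unadjusted p under 0.05 (0.0109, adjusted 0.485) with a log2 fold change of 1.35, at 1.37 ± 0.552 CPM in water and 3.55 ± 1.98 CPM in zinc, and 0.92 without zinc replicate 3. Of the listed phospholipases other than Pla2g2a and Pla2g2f, 3 had a positive and 3 a negative fold change, 0 passed the test, and their median was −0.27 beside 0.01 over all genes tested, or −0.43 without zinc replicate 3.

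Among the 14 other lipase and colipase genes 6 passed the filter and 0 passed the test, 3 with a positive and 3 with a negative fold change (median 0.01). Liph, a phosphatidic acid-specific phospholipase gene, had 231 ± 15.7 CPM in water and 174 ± 75.2 CPM in zinc (log2 fold change −0.41, adjusted p = 0.590, edgeR). Zinc replicate 3 was the lowest Liph library at 73.7 CPM, and without it the value was −0.15. Pnpla2, the triglyceride lipase of lipid droplets, had 76.8 ± 12.8 and 71.5 ± 17.4 CPM (−0.11, adjusted p = 0.841, and 0.05 without zinc replicate 3). Pnlip, the pancreatic triglyceride lipase that colipase serves in the gut lumen, had 0 counts in all 8 libraries, as did the carboxyl ester lipase gene Cel. Clps and Pnliprp2 were thus abundant where the pancreatic lipase itself was not detected.

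Of the 30 listed pancreatic acinar markers 21 had 0 counts in all libraries, among them trypsinogen Prss2, the carboxypeptidase genes Cpa1 and Cpb1, the amylases and the acinar transcription factor gene Ptf1a. The highest were Rnase1, at 775 ± 87.2 CPM in water and 716 ± 96.4 in zinc (log2 fold change −0.11, adjusted p = 0.785, edgeR), and Bhlha15, a transcription factor gene of secretory cells, at 113 ± 21.2 and 167 ± 70.3 CPM (0.56, adjusted p = 0.487, and 0.23 without zinc replicate 3). The summed level of the acinar list was 792 to 1032 CPM in water and 872 to 1060 CPM in zinc.

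Of 24 other serine protease genes related to HABP2 or trypsin 7 passed the filter, 5 with a positive and 2 with a negative fold change, and 0 passed the test (median 0.09). Tmprss2 and St14, membrane-anchored proteases of epithelia, led them with 629 ± 58.9 against 654 ± 54.4 CPM and 335 ± 33.7 against 249.8 ± 122 CPM in water and zinc. St14 was at 82.9 CPM in zinc replicate 3, and without that library its log2 fold change went from −0.42 to −0.13. Of 16 serine protease inhibitors 9 passed the filter, 3 with a positive and 6 with a negative fold change, and 0 passed the test (median −0.41, or −0.25 without zinc replicate 3). Spink4, a secreted Kazal-type inhibitor also used as a goblet cell marker, was the most abundant, at 6599.7 ± 2374 CPM in water and 4965 ± 416 CPM in zinc (−0.41, adjusted p = 0.529, edgeR). Spint2, an inhibitor of membrane-anchored proteases, had 649 ± 32.6 and 652 ± 48.3 CPM (0.01, adjusted p = 0.989).

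Zinc response genes and markers of other cells were read beside these values. Of 5 zinc response genes 0 passed the test, 4 with a positive fold change. The largest log2 values were those of Mt2 (2.57) and Slc30a1 (2.47, at a mean of only 1.53 CPM). The negative one was Slc39a4, a zinc importer gene (−0.25). Slc30a2, a vesicular zinc transporter gene, had 73.9 ± 8.69 CPM in water and 103 ± 14.6 CPM in zinc without overlap (log2 fold change 0.48, adjusted p = 0.485, edgeR), and Mt1, a metallothionein gene, 47.4 ± 14.3 and 109 ± 102 CPM (1.20, adjusted p = 0.485). The Mt1 mean in zinc rested on replicates 1 and 2, at 254 and 107 CPM, while replicates 3 and 4 had 29.5 and 45.0 CPM, within or below the 36.0 to 68.2 CPM of water. Summed, the 5 zinc response genes, Slc39a4 included, had 589, 292, 172 and 205 CPM in zinc replicates 1 to 4 against 164 to 199 CPM in water. The other 11 Paneth cell markers had 1 positive and 10 negative fold changes, 0 past the test, with a median of −0.26, and summed to 432565 to 758726 CPM in water and 416386 to 511731 CPM in zinc. The 12 enterocyte markers summed to 317 to 380 CPM in water and 345 to 765 CPM in zinc, led by Vil1 and Anpep, and 11 of them were highest in zinc replicate 3, beside 29.8% of all genes tested. All 8 enterocyte markers tested had a positive fold change (median 0.72), with 0 past the test. Without zinc replicate 3 the zinc sums reached 437 CPM, 5 of the 8 fold changes were positive and the median was 0.24.

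The 10 crypt stem cell markers, led by Olfm4 and Slc12a2, summed to 462 to 647 CPM in water and 528 to 1186 CPM in zinc, and all 9 tested had a positive fold change (median 0.96), again with 0 past the test; without zinc replicate 3 they were 8 of 9 with a median of 0.78. The goblet cell markers, led by Spink4 and Muc2, summed to 12277 to 18246 CPM in water and 14062 to 18208 CPM in zinc, with 6 positive and 6 negative fold changes. Enteroendocrine and tuft cell markers, led by Sct and Tac1, summed to at most 46.6 CPM. Immune and stromal markers were near 0 apart from Lyz2, whose mean was 19.8 CPM, and 8 of those 20 had 0 counts, among them Col1a1 and Adgre1. The part of these other cell types in the values of the 7 genes was not tested.

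Upstream of the gene starts, a search was made for the core of the metal response element, the DNA word bound by the zinc-sensing factor MTF1, written TGCACNC or TGCGCNC and read on both strands. The 250 bases before the canonical start held it in 3 of the 7 genes, Mmp7, Clps and Habp2, with 1 match each, beside 21.9% of 21770 protein-coding genes. Mt1 and Slc30a1 held 1 match each and Mt2 held 2. The window of Mmp7 (GRCm39, chr9:7691841-7692090, plus strand) is shown because its product depends on zinc; the match, on the opposite strand, is in capitals. A match of these letters is a description and not a site.
Mmp7 upstream window: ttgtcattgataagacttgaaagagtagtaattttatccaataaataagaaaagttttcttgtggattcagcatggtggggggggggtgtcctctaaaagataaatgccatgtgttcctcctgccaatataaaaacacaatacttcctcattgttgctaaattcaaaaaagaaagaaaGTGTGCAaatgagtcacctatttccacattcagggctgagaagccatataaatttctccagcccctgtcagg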

How the data were processed

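The values deposited by the authors are unnormalised read counts of 55414 Ensembl genes in the 8 libraries. Per the labels, PCs were sorted by FACS, RNA was purified with a column kit, and strand-specific libraries were made from polyadenylated RNA. The submitters' processing notes name FastQC 0.12.0, STAR 2.7.10a, DESeq2 and the mm39 build, the same assembly as GRCm39. The counting program, its strand setting, the annotation release and the treatment of reads with several matches are not given in the sources used here, so counts of Mmp7 and Habp2, which have antisense neighbours, could include reads from those.

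Of the identifiers, 54749 matched GENCODE M39, which gave symbols, coordinates and canonical transcript lengths. Counts were tested with edgeR 4.0.16 (R 4.3.3; quasi-likelihood F-test, TMM factors, default filter by group, 95% confidence intervals), with p-values adjusted by Benjamini and Hochberg over the 10707 genes tested and a threshold of 0.05. Ratios were compared by exact permutation tests (scipy 1.17.1). Each library was taken to be 1 mouse, as the series' design states groups of mice. The p-values set a difference between groups against the variation between these libraries. Alternatives included DESeq2 1.42.0, limma 3.58.1 (voom with sample weights), other scalings and filters, and fits without single libraries. The edgeR step was tested on simulated data. The limit from 0 counts is 3 counts and covers counting error only.

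The genes, gene lists and tests were chosen with earlier results of these data known. Genes named were the 7, the 2 most abundant others of each list, any past the threshold, and for each of the 7 the 2 genes most like it, which for Klk1 are not reported here; any further gene was picked with its values in view.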

Additional observations from a re-analysis of the deposited data

Results flagged for a closer look

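Among 20 groups of 4 libraries searched (the 7 genes and 3 ratios, each in water and in zinc), 2 held an extreme library by the criterion of Dixon, which chance alone meets in about 1 of 20 groups. Both were zinc replicate 3. Its Habp2 level was 654 CPM, with the nearest zinc library at 591 CPM. Its Mmp7 count was 10.6 per 1000 Defa counts, with the nearest zinc library at 11.7. This is the library whose TNF response genes summed to 135 CPM.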

How the results depend on the processing

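No alternative called any of the 7 genes. Over 133 refitted log2 fold changes, 119 kept their sign and the smallest adjusted p was 0.275. DESeq2 called 4 genes of all tested, against 0 by edgeR, where 1092 genes had an unadjusted p under 0.05; every other alternative called 0. Signs that turned were those of Clps, Klk1 and Mmp7. Clps was above 0 without water replicate 3 (0.16), water replicate 4 (0.014), zinc replicate 2 (0.042) and zinc replicate 4 (0.040), with 6 libraries that leave out water replicates 3 and 4 (0.37), with 5 that also leave out zinc replicate 3 (0.20), after removal of a transcript length trend (0.091) and on library totals (0.16). Klk1 was below 0 in limma-voom (−0.0091), without water replicate 2 (−0.029), without zinc replicate 3 (−0.049) and in the 5 libraries (−0.014). Mmp7 was above 0 in the 6 libraries (0.0026) and the 5 libraries (0.039). The 5-library and library-total fits, and the list, range and likeness values without one library, were chosen after the data had been seen. The cause of these changes was not tested. Without single libraries, Clps ranged from −0.22 to 0.16, Klk1 from −0.05 to 0.24, the Mmp7 ratio difference ranged from −1.86 to −0.94 and that of Clps to Pnliprp2 from −0.40 to −0.13.

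The labels give both groups replicate numbers 1 to 4. Over all genes tested, deviations of same-numbered libraries correlated at −0.03 to 0.03. The labels do not say whether the numbers pair the libraries, and these correlations cannot exclude it. With the replicate number as a block 0 genes and 0 of the 7 were called, with 802 genes at an unadjusted p under 0.05. The paired exact test gave p = 0.125, its smallest possible value, for both ratios. Depth did not limit the 7 genes, whose lowest count was 1884.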

Other observations

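The labels do not give the sex of the mice. The Y-linked genes Ddx3y, Kdm5d, Uty and Eif2s3y had 0 counts in all 8 libraries and Xist had 29.6 to 51.7 CPM. That is the pattern of female cells in all 8 libraries.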
